A study of Homo sapiens with 12 samples.

Results

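The 9 genes described here belong to the ERK5 pathway: MAPK7, which encodes the kinase ERK5, the kinases upstream of it (MAP3K2, MAP3K3 and MAP2K5) and genes downstream of it (MEF2A, MEF2C, MEF2D, SGK1 and KLF2). They were taken by name from tables of 61782 gene rows, and each had 1 row of its own, so that 0 of the 9 rows joined several genes. The tables come from K562 cells, a human erythroleukemia line, and per the study's methods the subline carried an inducible C/EBPα in all groups. The cells had been infected with the lentiviral vector pLV-miR-143 or with pLV-control. The methods name puromycin selection or cell sorting after infection, without saying which was used here. Lysates were precipitated with unspecific IgG or with an antibody against Argonaute 2 (AGO), which binds microRNAs and with them their target mRNAs. This gave the groups control_IgG, control_AGO, miR143_IgG and miR143_AGO with 3 samples each according to the labels. The deposited values are the authors' average FPKM per group (fragments scaled to transcript length in kilobases and to the mapped fragments of the library). With 1 value per gene and group, the spread of the replicates is not known, nothing could be tested, and every difference below compares averages only.

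ERK5 is an unusual member of the mitogen-activated protein kinases, since it joins a kinase domain to a long C-terminal tail that can itself activate transcription. MEKK2 and MEKK3, encoded by MAP3K2 and MAP3K3, phosphorylate MEK5, encoded by MAP2K5, and MEK5 is the kinase that activates ERK5. Active ERK5 phosphorylates transcription factors of the MEF2 family (MEF2A, MEF2C and MEF2D), which in turn drive KLF2, a zinc finger factor best known from endothelium and T cells, and it phosphorylates SGK1, a survival kinase that is also regulated by glucocorticoids. The pathway is known for growth, survival and lineage choice in blood cells, and ERK5 is a described target of miR-143. Whether MAPK7 stood apart from its own pathway across the precipitates is the question of the comparisons below.

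A microRNA is guided by its seed, bases 2 to 8, which pair with a complementary stretch in the 3′ UTR of an mRNA. The mature strand of the vector's microRNA is shown because its seed defines the sites looked for, with the seed in capitals (RefSeq, GRCh38.p14):
hsa-miR-143-3p: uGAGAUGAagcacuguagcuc
Sites were searched on the sense strand of the longest 3′ UTR of each coding gene in GENCODE 29 (GRCh38) in 3 forms, the 8mer TCATCTCA and, within it, the 7mer-m8 TCATCTC and the 7mer-A1 CATCTCA, where each place counts once under its longest form. Of the 9 genes, 2 held a site, MAPK7 and MEF2C. Over 19133 coding genes with a 3′ UTR, 22.2% held a site of any kind and 4.59% an 8mer. The sites of both genes are printed below with the 28 bases that end opposite the first base of the microRNA, since they show how the match of MAPK7 differs from those of MEF2C. Capitals mark the match to the seed and, in the 8mer, the A that follows it.
MAPK7 8mer, chr17:19383331-19383358, plus strand: gcttggattattctgcaggtTCATCTCA
MEF2C first 7mer-m8, chr5:88720633-88720660, minus strand: gaatgtgaagatctgtcgatTCATCTCc
MEF2C second 7mer-m8, chr5:88719831-88719858, minus strand: cacttgaaaatggatgccagTCATCTCt
The MAPK7 site starts at base 120 of a 3′ UTR of 313 bases, in the last exon of the gene (17:19377721-19383544). Those of MEF2C (5:88717117-88904257) start at bases 1964 and 2766 of a 3′ UTR of 5487 bases. The computed free energy of the duplex with miR-143-3p was −19.1 kcal/mol for MAPK7 and −10.8 and −14.2 kcal/mol for the MEF2C sites. Such a match describes the sequence and does not show that AGO2 sat there.

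The 3′ UTRs of the pathway differed widely in length, from 313 bases in MAPK7 and 373 in MAP2K5 to 8849 in MAP3K2, against a median of 1104 over all coding genes. For 4 further microRNAs known from blood cells, 7mer-m8 sites were counted in the same way, and MAPK7, MAP2K5 and MEF2C held none of them. MAP3K2, with the longest 3′ UTR, held 4 sites for miR-17-5p (GCACTTT), 1 for miR-19b-3p (TTTGCAC) and 1 for let-7a-5p (CTACCTC). MEF2D held 1 site for miR-19b-3p and 2 each for miR-92a-3p (GTGCAAT) and let-7a-5p. SGK1 held 1 miR-17-5p and 2 miR-92a-3p sites, MAP3K3 held 1 miR-17-5p site, MEF2A 1 miR-19b-3p site and KLF2 1 miR-92a-3p site. Over all coding genes these motifs were found in 21.4% (miR-17-5p), 13.6% (miR-19b-3p), 11.1% (miR-92a-3p) and 9.71% (let-7a-5p).

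The groups differed in depth and content. Between 8393 rows (control_IgG) and 12937 rows (miR143_AGO) were above 0. All rows summed to 2.83e+06 FPKM (control_IgG), 2.60e+06 FPKM (miR143_IgG), 368552 FPKM (control_AGO) and 411417 FPKM (miR143_AGO). Leaving out 36 of the highest rows brought these sums to 288671, 293847, 179650 and 172801 FPKM, listed in the same order. These 36 rows thus held most of the summed FPKM of both IgG groups, and a smaller share of the AGO groups. The main ratios of AGO over IgG were not adjusted for this. The smallest products of FPKM and transcript length that a group shows, its low edge, fall as depth rises. Relative to miR143_AGO this edge was higher by a factor of 13.5 in control_IgG, of 1.64 in miR143_IgG and of 1.09 in control_AGO. Fewer fragments therefore stand behind a given FPKM in control_IgG than in the other groups. As a check of the labels, MIR143 was listed at 0 in both control groups and at 44781 FPKM in miR143_IgG and 118393 FPKM in miR143_AGO. GAPDH, used by the study as a transcript not bound by AGO2, lay between 467 and 584 FPKM in the 4 groups. Of 7 rows holding the 9 erythroid markers of K562, 6 were at 1 FPKM or more in control_IgG and 7 in each other group. The 6 granulocytic markers summed to 7.14 to 14.6 FPKM, with ELANE and MPO listed at 0 in all groups and ITGAM as the highest in each. The 7 markers of other cell types summed to 6.42 to 29.4 FPKM, all but a small part of it from KRT19 and EPCAM, and CD3E, MS4A1 and ALB were listed at 0 throughout.

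MAPK7 (gene ENSG00000166484) was one of the higher genes of the pathway in the AGO precipitates and the lowest in 1 mock precipitate. Its AGO precipitates held 36.9 FPKM (control) and 14.2 FPKM (miR-143), and its IgG precipitates 6.69 FPKM (control) and 0.0988 FPKM (miR-143). Among the 9 genes it took place 3 in control_IgG, place 2 in control_AGO, place 9 in miR143_IgG and place 3 in miR143_AGO. In such bulk averages, fewer cells with an mRNA, less of it per cell and less of it precipitated cannot be told apart. According to the labels, no sample held RNA from before precipitation. Both AGO values were above both IgG values, and the value in miR143_IgG was far below the other 3. This value was 3.47 times the low edge of its group, so that it rests on few fragments, whereas the values in the AGO groups were 1958 (control) and 815 (miR-143) times the edge of theirs. In control_AGO, MAPK7 was higher than 91.0% of the rows above 0, and in miR143_AGO higher than 82.1%.

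Among the upstream kinases, MAP3K3 (17:63622415-63696303) had a pattern in the AGO precipitates close to that of MAPK7. Control cells gave 45.8 FPKM with AGO and 5.25 FPKM with IgG, and miR-143 cells 18.6 FPKM with AGO and 7.12 FPKM with IgG. Like MAPK7 it was highest in control_AGO, but its mock values lay close together. MAP3K2 (2:127298730-127388465), whose product shares its target MEK5 with that of MAP3K3, was at 8.40 FPKM (IgG) and 1.81 FPKM (AGO) in control cells, and at 0.234 FPKM (IgG) and 3.54 FPKM (AGO) in miR-143 cells. It had its highest value in one mock precipitate and its lowest in the other. MAP2K5 (15:67542709-67807123) was low in every group, with IgG values of 1.78 FPKM (control) and 3.33 FPKM (miR-143) and AGO values of 2.37 FPKM (control) and 0.800 FPKM (miR-143). The activating kinase MEK5 was thus represented by less mRNA per length than its substrate ERK5 in 3 of the 4 groups, and by more in miR143_IgG.

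By their AGO values, the downstream genes fell into a high, an intermediate and a low set. This order did not hold in the mock precipitates, where MEF2D lay below MEF2C in both. SGK1 (6:134169246-134318112) had AGO values of 29.1 FPKM (control) and 44.7 FPKM (miR-143) and IgG values of 9.35 FPKM (control) and 27.4 FPKM (miR-143), and it was the highest of the 9 genes in 3 groups, all but control_AGO. MEF2D (1:156463727-156500828) was listed at 0 in control_IgG and had 2.85 FPKM in the other mock precipitate, against 7.81 FPKM (control) and 7.31 FPKM (miR-143) with AGO. Its AGO values hardly differed and both were above its IgG values.

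MEF2C, the MEF2 gene with seed sites, had IgG values of 3.36 FPKM (control) and 4.64 FPKM (miR-143) and AGO values of 0.712 FPKM (control) and 2.68 FPKM (miR-143), with both IgG values above both AGO values. MEF2A (15:99565417-99716466) reached 6.17 FPKM in control_IgG and was under 1 FPKM elsewhere, with 0.582 FPKM in miR143_IgG and AGO values of 0.431 FPKM (control) and 0.331 FPKM (miR-143). Its control_IgG value stood apart from the other 3. KLF2 (19:16324817-16327874) had IgG values of 0, as listed, in control cells and 0.248 FPKM in miR-143 cells, with AGO values of 0.514 FPKM (control) and 0.625 FPKM (miR-143), so that it stayed under 1 FPKM throughout. At these levels KLF2 was between 5.58 and 23.1 times the low edge in the 3 groups in which it was above 0, and MEF2A between 35.3 and 48.9 times in all 4.

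**Figure D1:**
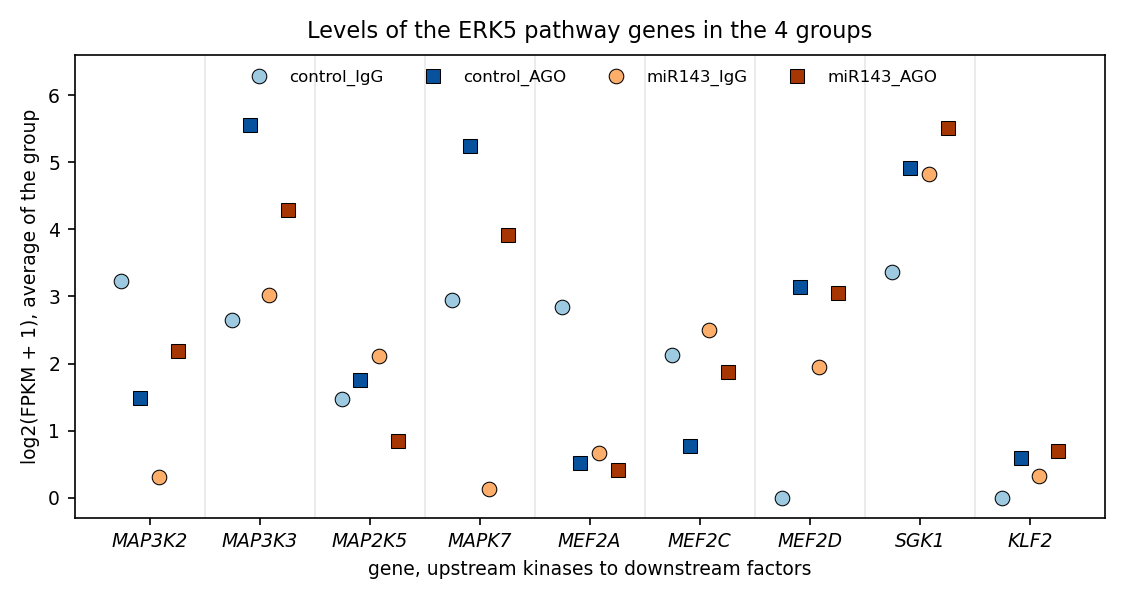
Levels of the 9 ERK5 pathway genes as log2(FPKM + 1), 1 point per group (the authors' average of the group, without error bars since single samples were not analysed); circles are IgG and squares AGO precipitates, blue is control and orange to brown miR-143. MAPK7 and MAP3K3 are highest in control_AGO, SGK1 is highest in miR143_AGO, and the MAPK7 value of miR143_IgG lies near 0.

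MAPK7, MAP3K3 and SGK1 had the highest values of the 9 genes in both AGO groups. Together they made up 89.1% of the summed FPKM of the 9 genes in control_AGO and 83.5% in miR143_AGO. Their share was 51.9% in control_IgG and 74.4% in miR143_IgG. As these genes were picked by their AGO values, their larger share with AGO follows in part from the choice. MAPK7 alone made up 29.4% in control_AGO, 15.3% in miR143_AGO, 16.3% in control_IgG and 0.213% in miR143_IgG.

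Differences between groups are given as log2 ratios of (FPKM + 1), which understate the change of low genes. Rows under 1 FPKM in every group of a comparison were left out of it, and a row was called at a difference of at least 2-fold. A 10-fold threshold was used beside it, here in both directions and in every ratio. The study applied 10-fold to increased AGO2 binding only, so that the shares below are not its measure. In the central comparison, miR143_AGO against control_AGO, 7 of the 9 genes were compared, and MEF2A and KLF2 were too low. Of the 7, 2 were at least 2-fold lower in miR143_AGO, MAPK7 and MAP3K3, and 1 was at least 2-fold higher, MEF2C. Among all 9798 rows compared, the share at least 2-fold lower was 14.1% and that at least 2-fold higher 17.7%. At least 10-fold differences were found for 1.03% of all rows and for 0 of the 7 genes. The median log2 ratio was −0.09 over the 7 genes and 0.17 over all rows, whose standard deviation was 1.12.

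MAPK7 had a log2 ratio of −1.32 between the AGO precipitates and was 2.61 times higher in control_AGO by the plain ratio. MAP3K3 had a log2 ratio of −1.26 and was 2.46 times higher in control_AGO. MAP2K5 had a log2 ratio of −0.91, under the 2-fold threshold, although its plain ratio put it 2.97 times higher in control_AGO. With pseudocounts of 0.1 and 0.01, MAP2K5 replaced MAPK7 as the lowest of the 9. MAPK7 was thus lowest only with the pseudocount of 1. MAP3K3 stayed close to it under the 3 scalings run, for example at −1.48 against −1.54 with the same median in all groups. Of all rows compared, 8.78% were as low as MAPK7 or lower, 9.61% as low as MAP3K3 and 15.6% as low as MAP2K5.

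The other genes lay on the other side or near 0. MEF2C had a log2 ratio of 1.10 and was 3.77 times higher in miR143_AGO by the plain ratio, from values of 0.712 and 2.68 FPKM. Of the 2 genes with miR-143-3p sites printed above, the one with an 8mer was therefore lower, and the one with a pair of 7mer-m8 sites higher, in the AGO precipitate of miR-143 cells. MAP3K2 had a log2 ratio of 0.69, SGK1 of 0.61 and MEF2D of −0.09.

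**Figure D2:**
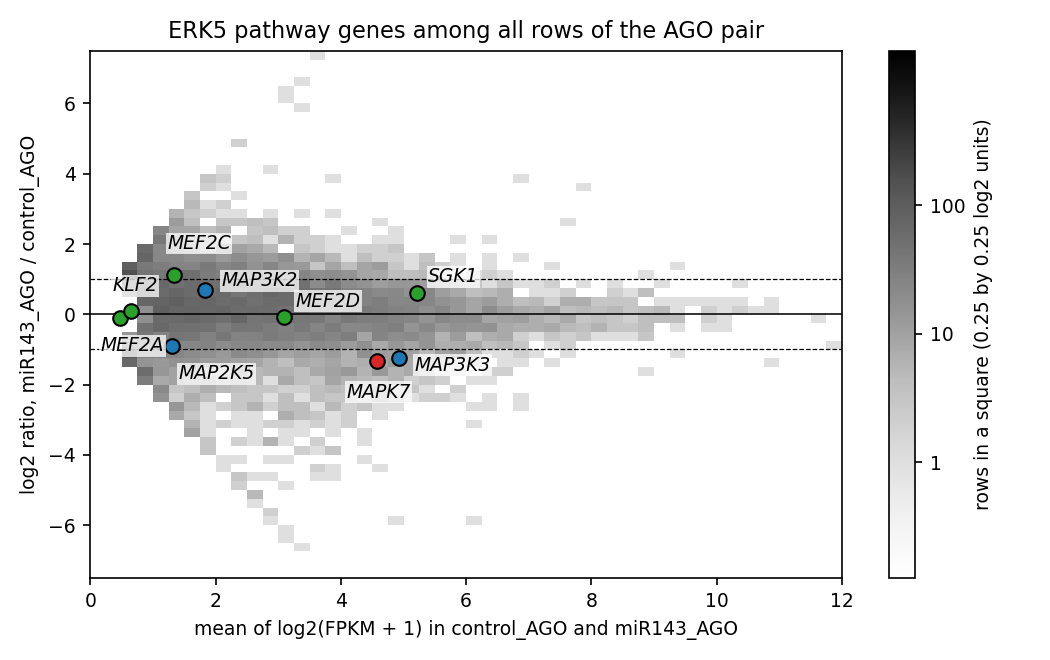
Log2 ratio of miR143_AGO over control_AGO (vertical) against the mean log2(FPKM + 1) of both groups (horizontal); grey squares count the rows compared (rows beyond the axes, MIR143 among them, are not drawn), coloured points are MAPK7 (red), the upstream kinases (blue) and the downstream genes (green), and dashed lines mark 2-fold. MAPK7 at −1.32 and MAP3K3 at −1.26 lie side by side below the lower line, and MEF2C at 1.10 lies just above the upper one.

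The ratio of 2 genes within a group does not depend on the scaling of the groups. MAPK7 over MAP3K3 was 0.806 in control_AGO and 0.761 in miR143_AGO, and MAPK7 over MAP2K5 was 15.6 in control_AGO and 17.7 in miR143_AGO. Relative to these 2 upstream kinases MAPK7 therefore differed by a factor of only 0.944 and 1.14 between the AGO groups. MAPK7 over SGK1 was 1.27 in control_AGO and 0.316 in miR143_AGO, 4.02 times lower. MAPK7 over MEF2D was 4.73 in control_AGO and 1.94 in miR143_AGO, 2.44 times lower. Relative to MAP3K2, MAPK7 was 5.11 times lower and relative to MEF2C 9.83 times lower, and the 2 genes too low to be called, MEF2A and KLF2, gave factors of 2.01 and 3.17 in the same direction. In the mock precipitates MAPK7 over MAP3K3 was 1.27 in control_IgG and 0.0139 in miR143_IgG.

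As background, the same contrast was made between the mock precipitates, miR143_IgG against control_IgG. Of 8 genes compared, 3 were at least 2-fold lower in miR143_IgG, MAPK7, MAP3K2 and MEF2A, and 2 were at least 2-fold higher, SGK1 and MEF2D, the latter listed at 0 in control_IgG. Over all 10172 rows compared, 26.8% were at least 2-fold lower, 36.2% at least 2-fold higher and 8.87% at least 10-fold different. Of the 8 genes, 0 were at 10-fold. With a pseudocount of 0.1, MAPK7 (−5.09) and MAP3K2 (−4.67) passed 10-fold downward. MEF2D (4.88), with its 0 in control_IgG, then passed it upward. The log2 ratio was −2.81 for MAPK7, −2.93 for MAP3K2, −2.18 for MEF2A and 1.46 for SGK1. By plain ratios MAPK7 was 67.7 times, MAP3K2 35.9 times and MEF2A 10.6 times higher in control_IgG, and each of these ratios divides by a value under 1 FPKM. MAP3K3 with a log2 ratio of 0.38, MEF2C with 0.37 and MAP2K5 with 0.64 stayed under 2-fold. MAPK7 was thus lower with miR-143 in both kinds of precipitate, and MAP3K3 only in the AGO precipitates; the difference between the 2 kinds could not be tested.

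Enrichment over the mock precipitate in control cells, control_AGO against control_IgG, went both ways among the 8 genes compared, as it did among all rows. At least 2-fold higher in AGO were 4 of 8 genes, MAPK7, MAP3K3, SGK1 and MEF2D, and at least 2-fold lower were 3, MAP3K2, MEF2A and MEF2C. Over all 9919 rows compared, 34.5% were at least 2-fold higher, 36.2% at least 2-fold lower and 9.36% at least 10-fold different, with 0 of the 8 genes at 10-fold. That 0 depends on the settings: MEF2A passed 10-fold with a pseudocount of 0.1 (−3.56) and was 14.3 times lower by the plain ratio, and MAP3K3 passed it with the same median (3.50). MEF2D, with its 0 in control_IgG, passed it with a pseudocount of 0.1 (6.31) and with the same median (3.43). The call of MEF2C ended with the same median (−0.95) and with the same sum without the highest rows (−0.94). MAP3K3 was 8.72 times, MAPK7 5.52 times and SGK1 3.11 times higher in control_AGO by plain ratios, with log2 ratios of 2.90, 2.30 and 1.54. MEF2D was at 7.81 FPKM against a value listed at 0. The log2 ratios were −2.33 for MEF2A, −1.74 for MAP3K2 and −1.35 for MEF2C, and that of MAP2K5 was 0.28.

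In miR-143 cells, miR143_AGO against miR143_IgG, 4 of 7 genes were at least 2-fold higher in AGO, MAPK7, MAP3K2, MAP3K3 and MEF2D, and 1 was at least 2-fold lower, MAP2K5. Over all 10643 rows compared, 26.6% were at least 2-fold higher, 33.5% at least 2-fold lower and 5.27% at least 10-fold different, and MAPK7 was the 1 gene of the pathway past 10-fold. Its log2 ratio was 3.79, reached or exceeded by 0.817% of all rows, and its plain ratio of 143 divides by the 0.0988 FPKM described above. MAP3K2 had a log2 ratio of 1.88, MAP3K3 of 1.27, MEF2D of 1.11, SGK1 of 0.69, MEF2C of −0.61 and MAP2K5 of −1.27. Enrichment of at least 2-fold in both cell populations was found for MAPK7, MAP3K3 and MEF2D, the last with its 0 in control_IgG. SGK1 joined them when the groups were scaled to the same upper quartile (1.08 in miR-143 cells) or to the same sum without the highest rows (1.43). The share of all rows enriched in both populations was not counted, so that this overlap is a list only. With a pseudocount of 0.1, MAP3K2 passed 10-fold as well (3.45). MAP3K2 was lower in AGO in control cells and higher in miR-143 cells.

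The IgG-corrected ratio divides the enrichment in miR-143 cells by that in control cells. It uses all 4 groups, so that it shares its values with every comparison above and with the shallow control_IgG group. For MAPK7 it also rests on the miR143_IgG value of 0.0988 FPKM, which was 3.47 times the low edge of that group. Of 8 genes, 3 had an at least 2-fold higher ratio, MAP3K2, MEF2A and MAPK7, and 3 an at least 2-fold lower one, MAP3K3, MAP2K5 and MEF2D, the last with its 0 in control_IgG. Over all 11914 rows, 29% were at least 2-fold higher, 33.5% at least 2-fold lower and 10.3% at least 10-fold different. MAP3K2 was the 1 gene past 10-fold, with a log2 value of 3.62. This call was lost with the same median in all groups (3.19), and with a pseudocount of 0.1 MAPK7 (3.72) and MEF2D (−4.98) also passed 10-fold. The log2 value was 2.08 for MEF2A, 1.48 for MAPK7, 0.73 for MEF2C, −0.85 for SGK1, −1.55 for MAP2K5 and −1.63 for MAP3K3. When all groups were scaled to the same median, the value of MAPK7 was 0.97 and no longer reached 2-fold. The 3 genes with a higher corrected ratio are the same 3 that were lower in miR143_IgG than in control_IgG. Of 2311 rows with an at least 2-fold higher corrected ratio among those compared in both pairs, 1653 (71.5%) were at least 2-fold lower in miR143_IgG and 642 were at least 2-fold higher in miR143_AGO than in control_AGO. A further pattern was taken from the values of MAPK7 itself, so that MAPK7 had it by construction. It joins a 2-fold lower value with miR-143 in both kinds of precipitate to a 2-fold higher corrected ratio. The pattern was found in 62 rows, 0.770% of 8056, with MAPK7 as the 1 gene of the pathway among them. MAPK7 would lose it with the same median in all groups.

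**Figure D3:**
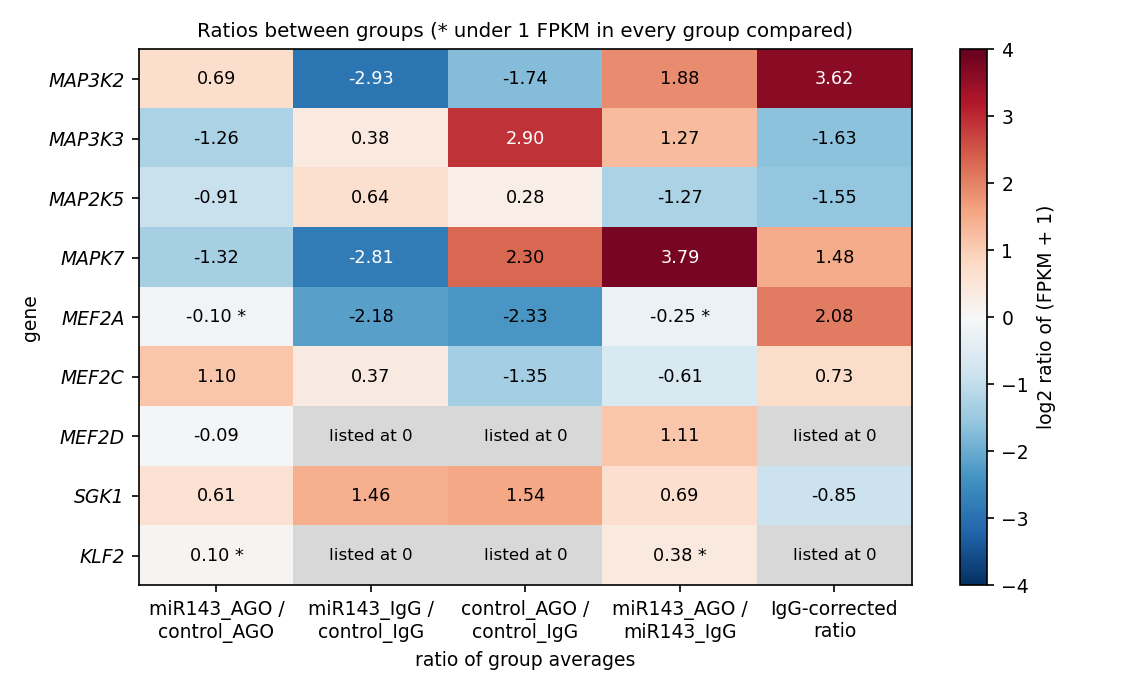
Log2 ratios of (FPKM + 1) for the 9 genes (lines, upstream to downstream) in the 5 ratios (columns), with red for higher and blue for lower; grey cells involve a group in which the gene was listed at 0, and * marks genes under 1 FPKM in every group compared. MAPK7 is blue in both miR-143 against control columns, −1.32 and −2.81, and red in both AGO over IgG columns, 2.30 and 3.79.

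The rows most like MAPK7 over the 4 groups were sought by the Euclidean distance of log2(FPKM + 1) among 59641 rows of 1 gene name. The 5 nearest were ATMIN (distance 0.78), ZFPL1 (1.03), RARG (1.11), VTA1 (1.20) and CRY2 (1.25), and 1 row lay within 1 log2 unit. ATMIN, the nearest, had AGO values of 39.0 FPKM (control) and 15.9 FPKM (miR-143) and IgG values of 6.99 FPKM (control) and 0.856 FPKM (miR-143). RARG, a retinoic acid receptor, had 27.1, 12.7, 10.2 and 0.995 FPKM in the same order. Within the pathway, MAP3K3 was nearest to MAPK7 with a distance of 2.94 and place 407, followed by MEF2D (4.14, place 1771) and MAP3K2 (4.15, place 1810), and KLF2 was farthest (6.38, place 7873). The likeness covers 4 values per gene and is a description of these averages.

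A wider list of 42 ERK5 pathway genes, from receptors to corepressors of MEF2, was set beside the 9. Of these, 41 had rows of their own and 35 were compared between the AGO precipitates. At least 2-fold higher in miR143_AGO were 4 of 35 (GAB1, PRKCI, XIAP and RPS6KA1) and 2 of 35 passed 2-fold in the other direction (BIRC2 and PML), against 17.7% higher and 14.1% lower among all rows. The median log2 ratio of the list was −0.02. BIRC2 and XIAP encode ubiquitin ligases that act on MEKK2 and MEKK3. BIRC2 was at 29.4 FPKM in control_AGO and 2.25 FPKM in miR143_AGO, a log2 ratio of −3.22, and at 19.7 FPKM in control_IgG and 38.8 FPKM in miR143_IgG. XIAP had a log2 ratio of 1.79, from 1.69 to 8.26 FPKM, and was listed at 0 in control_IgG. PML, which encodes the scaffold of nuclear bodies, had a log2 ratio of −1.15, and RPS6KA1, which encodes the kinase RSK1, one of 1.03. The chaperone partner CDC37, at −0.89, and the ubiquitin ligase STUB1, at 0.97, stayed under 2-fold. GAB1, an adaptor of receptor tyrosine kinases, and PRKCI, an atypical protein kinase C that binds MEK5, were named after their values were seen, with log2 ratios of 2.21 and 1.57 from values under 1 FPKM in control_AGO.

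Of the further genes known to act downstream of ERK5, 13 were compared between the AGO precipitates, where 1 was at least 2-fold higher, RPS6KA1, and 0 were 2-fold lower, beside 17.7% and 14.1% of all rows. Their median log2 ratio was −0.28. In the mock pair 4 of 10 were higher and 2 lower, beside 36.2% and 26.8% of all rows, and in the corrected ratio 2 of 14 were higher and 5 lower, beside 29% and 33.5%. MYC, whose protein the study followed as a readout of ERK5, had AGO values of 147 FPKM (control) and 121 FPKM (miR-143), a log2 ratio of −0.28, and IgG values of 159 FPKM (control) and 98.1 FPKM (miR-143). Its 4 values lay closer together than those of MAPK7. The 3 MEF2 corepressors compared, which are histone deacetylases, had log2 ratios from 0.17 to 0.64. Over the whole list, 8 of 30 genes were at least 2-fold higher and 10 at least 2-fold lower in the mock pair, against 36.2% and 26.8% of all rows. For AGO against IgG, 13 of 34 genes were at least 2-fold higher and 7 lower in control cells, where the shares of all rows were 34.5% and 36.2%. In miR-143 cells 14 of 35 were higher and 5 lower, and the shares of all rows 26.6% and 33.5%. In the IgG-corrected ratio 8 of 37 were at least 2-fold higher and 8 lower, against 29% and 33.5% of all rows.

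Other MAP kinases were compared with ERK5 in the AGO pair. MAPK14, which encodes p38α, was at 38.2 FPKM in control_AGO and 7.28 FPKM in miR143_AGO, a log2 ratio of −2.24, and was thus further down than MAPK7. MAPK9 (JNK2) had a log2 ratio of −1.13, from 3.26 to 0.945 FPKM, and MAPK8 (JNK1) one of 0.69. MAPK3 (ERK1) had a log2 ratio of 1.15, from 13.4 to 30.8 FPKM. Of the JNK module 1 of 6 genes compared was at least 2-fold lower. Of the 8 genes of the p38 module only 3 were compared, and 2 of these were lower, MAPK14 and MAPK11. In both modules 0 genes were at least 2-fold higher. Among all rows, 14.1% were lower and 17.7% higher. The median log2 ratio was 0.57 for the JNK module and −1.71 for the p38 module. No test of a difference between these lists and the ERK5 genes was possible with 1 value per group.

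**Figure D4:**
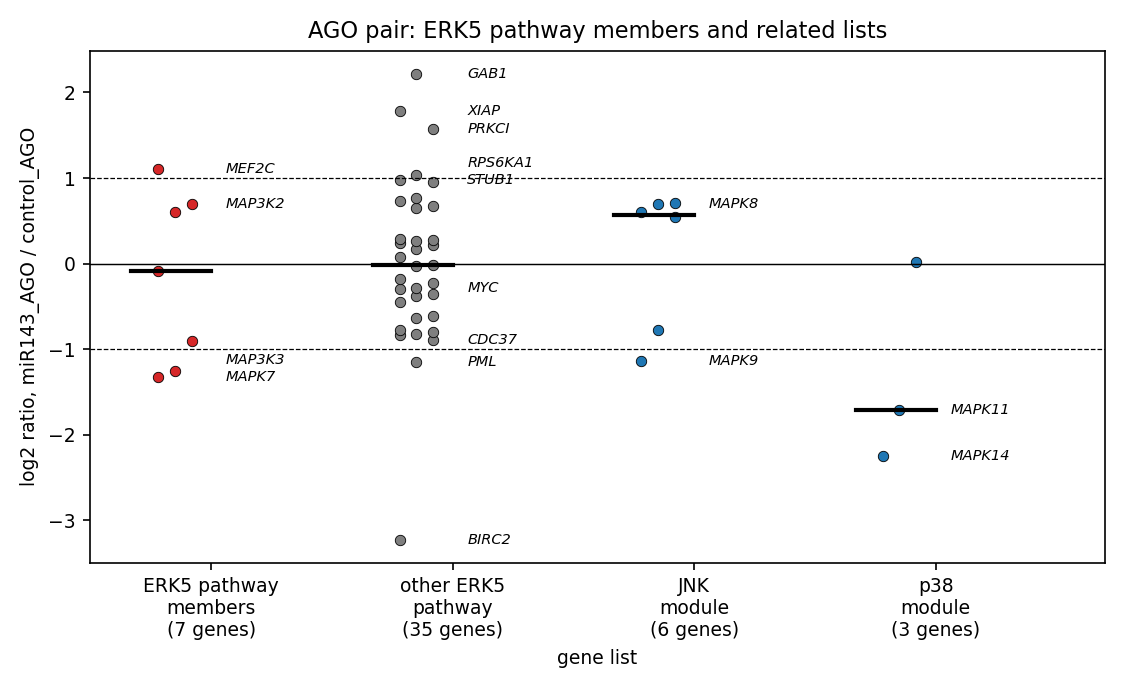
Log2 ratio of miR143_AGO over control_AGO for the genes compared of each list (1 point per gene, black bar the median, dashed lines 2-fold). Labels name some of the genes given in the text, and MAPK3 is not drawn. MAPK7 at −1.32 lies above MAPK14 at −2.24 and BIRC2 at −3.22, and beside MAP3K3.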

How the data were processed

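The authors deposited 4 tables, 1 per group of 3 samples, each with 1 FPKM value per gene row that the file headers name as the average. Per the labels and methods, reads were processed with TopHat and Cufflinks on hg38, with versions and annotation not given in the sources used here. The labels name Ribo-Zero Gold rRNA removal with random priming, whereas the methods name a TruSeq RNA kit. FPKM is scaled to each library's total, so that abundant RNAs lower all other values, and it hides the number of fragments.

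Rows were matched by exact name (Python 3.11.15, pandas 2.3.3). Ratios are log2 of (FPKM + 1) over (FPKM + 1). The planned test needed values per replicate, and its form for averages was used. The error rate of the calls was not tested, since the spread of the replicates is not known. Genes, 3′ UTRs of protein-coding transcripts and coordinates come from GENCODE 29 (GRCh38), and duplex energies from RNAduplex (ViennaRNA 2.7.2), which pairs the microRNA with the 28 bases shown. The low edge is the place 10 lowest product of FPKM and length among rows with 1 transcript, and for the 9 genes the longest coding transcript was used. The shares of a motif refer to longest 3′ UTRs.

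The 9 genes and all lists were chosen with earlier results of these data known. Named are the 9 genes, MIR143, GAPDH, MYC, the 3 highest and 3 lowest log2 ratios of the wider list among genes reaching 1 FPKM in control_AGO and in miR143_AGO, the 5 rows nearest to MAPK7 and other terminal MAP kinases, of which some results are not reported here. Alternatives were pseudocounts of 0.1 and 0.01, 3 scalings, other filters, summed rows and the shortest 3′ UTR.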

Additional observations from a re-analysis of the deposited data

Results flagged for a closer look

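MAP3K2, the gene of the upstream kinase MEKK2, went opposite ways in the 2 cell populations. It was lower in AGO than in IgG in control cells (log2 ratio −1.74, 1.81 against 8.40 FPKM) and higher in miR-143 cells (1.88, 3.54 against 0.234 FPKM). The difference between the log2 ratios was 3.62, and it was not tested, since there is 1 averaged value per group. The mock values differed as well, at 8.40 FPKM in control_IgG and 0.234 FPKM in miR143_IgG. By arithmetic, 3.62 is the log2 ratio of miR143_AGO over control_AGO, 0.69, minus that of miR143_IgG over control_IgG, −2.93. The larger part of the difference thus came from the mock precipitates.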

How the results depend on the processing

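No paired analysis was possible because each group is given as a single averaged column, and for the same reason no replicate could be left out. A log2 ratio was taken as unmoved when its fold stayed within 1.5 times and on its side of 2-fold. Of 360 recomputed log2 ratios of the 9 genes, 299 stayed so, 61 moved and 0 of those past 2-fold changed sign. The AGO pair ratio of MAPK7 did not move. With pseudocounts of 0.1 and 0.01 its ratio was −5.09 and −5.94 in the IgG pair (−2.81 with 1), 6.16 and 7.02 for AGO over IgG in miR-143 cells (3.79), and 3.72 and 4.56 in the IgG-corrected ratio (1.48). With both, its place from the highest among the 9 genes became 8 in the AGO pair (9 with 1), 9 in the IgG pair (8), 4 in the enrichment of control cells (3) and 2 in the corrected ratio (3), counting MEF2D and KLF2 with their 0 in control_IgG. With the same median, MAPK7 was at 2.91 in the enrichment of control cells (2.30) and 0.97 in the corrected ratio, and with the same sum after 36 of the highest rows were left out, at 2.93 in control cells. Under that scaling MAP2K5 was at −0.80 in miR-143 cells (−1.27), leaving 0 genes at least 2-fold lower there (1). The same median brought MAP2K5 past 2-fold in the AGO pair (−1.09) and MEF2C under it in the enrichment of control cells (−0.95, and −0.94 with the trimmed sum). SGK1 passed 2-fold in miR-143 cells with the same upper quartile (1.08) and the trimmed sum (1.43). With the shortest 3′ UTR, 1 gene held a miR-143-3p site (2), MAPK7.

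Scaling moved the median of all rows, for AGO over IgG in control cells from −0.19 to 0.49 with the same median and 0.51 with the trimmed sum, and in miR-143 cells from −0.22 to 0.51 with the trimmed sum. Relative to the median of all rows, MAPK7 was at −1.50 in the AGO pair, and from −1.51 to −1.52 under the 3 scalings. In the AGO pair the share of higher rows among those past 2-fold was 55.8%, and 46.0% with the same median, where 1515 rows were higher and 1775 lower. Of all rows past 2-fold, the share of higher ones in control cells was 48.8%, and 61.5% with the same median and 61.9% with the trimmed sum. In miR-143 cells it was 44.2%, and 55.02% with the same upper quartile and 64.1% with the trimmed sum. Depth limits the values of control_IgG most, and KLF2 and the miR143_IgG value of MAPK7.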
